A study of Rattus norvegicus with 9 samples.

Results

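CC-531 ex vivo tumors were set against CC-531 organoids for every gene of one table of read counts. CC-531 is a colon carcinoma cell line of the WAG/Rij rat. The ex vivo tumors (3 libraries, numbered 1, 2 and 3) were lesions that had grown in the abdominal cavity of WAG/Rij rats aged 8 to 10 weeks, after a suspension of the cells had been injected there. The organoids (3 libraries, from passages 7, 8 and 9 and called p7, p8 and p9) were the same cells grown in matrigel, a gel of basement membrane proteins. Both groups share the one cell line, and the labels give neither group an engineered allele or a drug. All 34322 genes of the table were members and no measured value chose them. Of these, 26902 had at least 1 read in the 6 libraries and 15813 had enough reads to be tested. A further 3 libraries of CC-531 cells on plastic entered the fit only for the scaling and to estimate the spread. An ex vivo tumor is a piece of whole tissue, and the reads of the rat's own cells and of the tumor cells carry the same gene names. The labels name no animal, culture, batch or pairing, so a p-value rests on how far single libraries lie from each other, part of which can be technical.

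A colon tumor on the peritoneum grows among mesothelial cells, fat, fibroblasts, vessels and immune cells. Fibroblasts lay down fibrillar collagen, macrophages clear debris and make complement, and T cells release interferon gamma, which switches on genes of antigen presentation in most cells it reaches. An organoid holds the epithelial cells alone and takes lipid, oxygen and growth signals from its medium and gel. Cells that are short of sterol raise the enzymes of cholesterol synthesis through the SREBP factors, and cells that are short of oxygen raise glycolysis through the HIF factors. The genes were therefore read in 40 lists, of which one part marks cell types and the other pathways. A level is given as CPM (read counts of a library scaled to a common total), and a difference as a log2 fold change of ex vivo tumors over organoids, so that a positive value is higher in the tumors. Values are listed in the order ex vivo 1, 2 and 3, and p7, p8 and p9.

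The ex vivo libraries held 13613276, 18438055 and 12601774 reads in genes, and the organoid libraries 20444595, 18753142 and 15968793. At this depth 1 read was worth between 0.0512 and 0.0753 CPM in the tumors and between 0.0486 and 0.0649 CPM in the organoids. Organoid p7 stood apart from p8 and p9: the median SD of log2 CPM was 0.336 over the 3 tumors and 0.317 over the 3 organoids, but 0.0813 over p8 and p9 alone. Ex vivo tumor 1 stood apart too, with the highest of the 3 tumor values in 51.4% of the genes called higher, against 37.8% of all genes tested. Counts that turned on p7 or on ex vivo 1 are therefore given with and without that library. What set these libraries apart was not tested.

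Of the 15813 genes tested, 3139 (19.9%) were higher and 1681 (10.6%) were lower in ex vivo tumors than in organoids at an adjusted p under 0.05 (edgeR's quasi-likelihood test, Benjamini-Hochberg over all genes tested). The rises were large and the falls moderate, with a median log2 fold change of 3.82 among the genes called higher and -1.21 among those called lower. A change over 16-fold was met by 1516 of the genes called higher and by 39 of those called lower. Genes called higher took 15.5%, 12.3% and 14.4% of the reads in the tumors, against 3.71%, 2.91% and 2.84% in the organoids. Genes called lower took 8.57%, 11% and 11.7% of the reads in the tumors, against 17.6%, 27.7% and 27.6% in the organoids. In 4314 genes (27.3%) all 3 tumors lay above all 3 organoids, and in 2848 genes (18.0%) all lay below. With scaling centred on the epithelial list 3521 genes were higher and 1078 lower, and after quantile normalization with limma 2852 were higher and 3626 lower. Without p7 the test called 4452 genes higher and 2408 lower. Without p8 it called 988 lower and without p9 980. The share of the called members of each list is shown by bars.

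**Figure D1:**
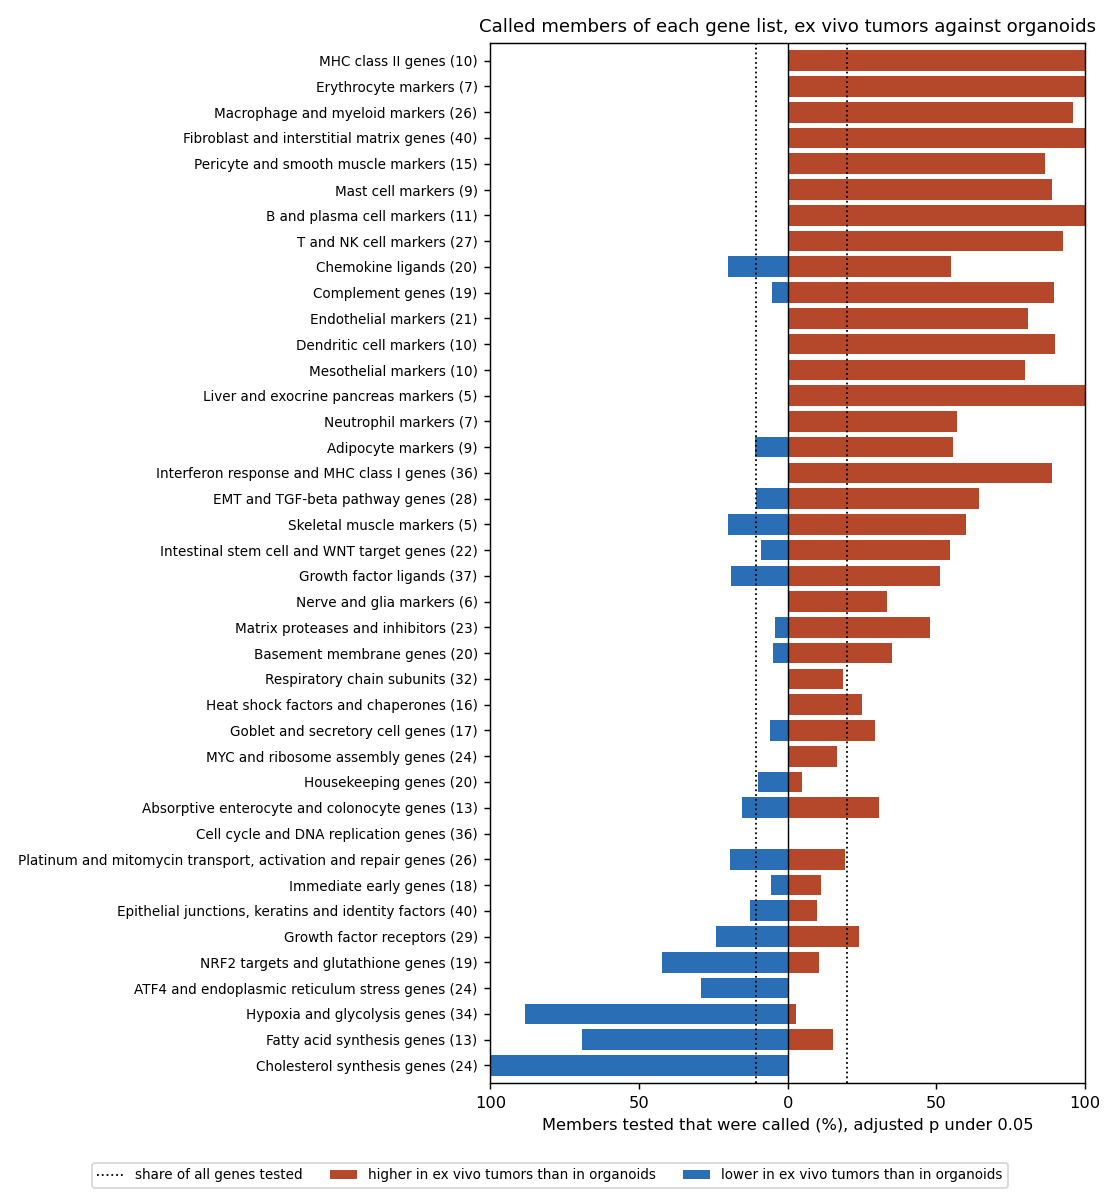
Each bar gives the percent of the tested members of a gene list (number tested in brackets, lists with at least 5) that were called higher (red, to the right) or lower (blue, to the left) in ex vivo tumors than in organoids, ordered by median log2 fold change. Dotted lines mark 19.9% higher and 10.6% lower over all genes tested; fibroblast, macrophage and MHC class II bars reach to the right end or near it and the cholesterol bar fills the left side.

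Genes found in only one of the groups were nearly all found in the tumors. With presence set at 1 CPM or more in each library of a group and absence at under 0.1 CPM in each library of the other, 675 genes were present only in ex vivo tumors and 6 only in organoids, while 11888 genes were present in all 6 libraries. This is a description with no test, since the levels themselves defined the classes. Folds and adjusted p-values given for their members come from the fit over all genes and do not support the classes. Of the 675, 93 carried only an identifier, 563 were also absent from CC-531 cells on plastic and 2 were present there, namely Bnc1, a mesothelial and basal epithelial factor, and an unnamed gene. They included 17 of the 40 fibroblast genes in the table, 16 of 28 macrophage, 16 of 28 T and NK cell, 6 of 9 mast cell, 5 of 10 MHC class II, 8 of 24 chemokine and 7 of 21 endothelial genes. These counts stand beside 675 of all 34322 genes in the table. Other lists held few or none, such as 0 of 37 interferon, 0 of 41 epithelial and 1 of 24 goblet cell genes. The 6 genes present only in organoids included Cyp1a1, the xenobiotic monooxygenase induced through the aryl hydrocarbon receptor, with 0 CPM in all 3 ex vivo tumors, against 5.88, 13.2 and 12.7 CPM in organoids (at least 159-fold higher in organoids, adjusted p = 2.04e-05). They also included the olfactory receptor genes Olr39, with 0 CPM in all 3 ex vivo tumors, against 1.7, 1.53 and 1.43 CPM in organoids, and Olr40, with 0, 0 and 0.0753 CPM in ex vivo tumors, against 2.23, 1.37 and 1.49 CPM in organoids. Another 3 were unnamed genes, and all 6 stayed under 20 CPM in every organoid. Without p7 20 genes met the same rule in organoids, and without ex vivo 2 10 did.

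Fibroblast and matrix genes were higher in tumors throughout. All 40 listed genes were tested and 40 were called higher, with a median log2 fold change of 9.82, against 0.10 over all genes tested. A gene with no reads in organoids could pass the read filter only through the tumor libraries, so such counts describe these lists and do not support them. Col1a1, a chain of type I collagen, had 2405, 1549 and 3259 CPM in ex vivo tumors, against 0.68, 1.31 and 2.4 CPM in organoids (log2 fold change 10.71, SE 0.65, adjusted p = 5.56e-07). Col3a1, the chain of type III collagen, had 2056, 1629 and 3055 CPM in ex vivo tumors, against 0.0486, 0.109 and 0.0649 CPM in organoids (log2 fold change 14.76, SE 0.56, adjusted p = 3.62e-08). Both collagens stayed at a few CPM or less in every organoid. Mgp, a matrix protein that blocks calcification, had 607, 368 and 706 CPM in ex vivo tumors, against 0 CPM in all 3 organoids (at least 9678-fold higher in tumors, adjusted p = 1.71e-06). Igf1, a growth factor made by stromal cells and macrophages, had 129.8, 110.1 and 101 CPM in ex vivo tumors, against 0 CPM in all 3 organoids (at least 2047-fold higher in tumors, adjusted p = 1.15e-06). Postn, periostin of activated fibroblasts, had 383, 109.7 and 203 CPM in ex vivo tumors, against 0, 0 and 0.0649 CPM in organoids (count ratio 11754, 95% counting interval 2109 to 464298, adjusted p = 5.51e-07). Ex vivo 3 was the highest tumor for the collagens and Mgp, while Postn was highest in ex vivo 1. Summed over the list, the level was 11854, 8896 and 16695 CPM in ex vivo tumors, against 339.5, 186 and 192 CPM in organoids. In bulk RNA, more cells of a type and more RNA per cell cannot be told apart.

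Contractile and matrix-remodelling genes followed. Of 15 pericyte and smooth muscle genes 13 were higher, with a median of 8.44. Acta2, smooth muscle actin, had 223, 199 and 369 CPM in ex vivo tumors, against 0.0486, 0.656 and 0.909 CPM in organoids (log2 fold change 8.99, SE 0.63, adjusted p = 1.43e-06). Rgs5, a pericyte regulator of G protein signals, had 10, 10.8 and 22.2 CPM in ex vivo tumors, against 0 CPM in all 3 organoids (at least 250.0-fold higher in tumors, adjusted p = 7.35e-05). Neither gene overlapped between the groups. In the list of mesenchymal transition and TGF-beta genes, 28 of 30 were tested, of which 18 were higher and 3 lower (median 2.24). The 3 lower ones were Ltbp1, Skil and Itgav. Over all genes tested 19.9% were higher and 10.6% lower, and the lower calls of this list lay near the latter share. Only 1 member was lower without ex vivo 1 or without ex vivo 2, and none was without p8 or without p9. Vim, the mesenchymal filament vimentin, had 937, 534 and 711 CPM in ex vivo tumors, against 52.3, 116 and 128 CPM in organoids (log2 fold change 2.88, SE 0.38, adjusted p = 0.00015). Fn1, fibronectin, had 2015, 1958 and 2810.2 CPM in ex vivo tumors, against 104, 225 and 209.5 CPM in organoids (log2 fold change 3.65, SE 0.48, adjusted p = 0.000136). Axl, a receptor kinase of mesenchymal and myeloid cells, had 66.4, 81.9 and 136 CPM in ex vivo tumors, against 1.12, 1.37 and 1.75 CPM in organoids (log2 fold change 6.07, SE 0.45, adjusted p = 2.05e-06). Zeb1, a repressor of epithelial genes, had 15.8, 7.58 and 14.6 CPM in ex vivo tumors, against 0, 0.0547 and 0 CPM in organoids (count ratio 652, 95% counting interval 117 to 25791, adjusted p = 6.32e-06). Tgfb1, the ligand, had 168, 96.8 and 117 CPM in ex vivo tumors, against 29.5, 31.5 and 28.9 CPM in organoids (log2 fold change 2.09, SE 0.28, adjusted p = 0.000156). In each of these 5 genes the tumors lay wholly above the organoids. Fibroblast genes moved in the same direction in the same libraries, and their part in the mesenchymal list was not tested. CC-531 cells on plastic had 6088, 4944 and 1776 CPM of Fn1 at passages 5, 8 and 11. Vim, Axl, Zeb1 and Tgfb1 were lower in those cells than in every tumor.

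Basement membrane genes moved in both directions, where 19.9% of all genes tested were higher and 10.6% lower. Of 24 listed, 20 were tested, 7 were higher and 1 lower (median 0.56). Without p7 9 of 21 were higher and 5 lower, without ex vivo 3 there were 6 higher and 3 lower, and without the cells of passage 11 2 lower. Nid1, nidogen, had 72.8, 84.3 and 174 CPM in ex vivo tumors, against 1.21, 2.41 and 2.27 CPM in organoids (log2 fold change 5.82, SE 0.53, adjusted p = 9.59e-06). Lama4, the laminin chain of vessels and muscle, had 59.1, 44.5 and 89.8 CPM in ex vivo tumors, against 0 CPM in all 3 organoids (at least 1117-fold higher in tumors, adjusted p = 7.37e-06). In contrast Lama5, the main laminin chain of epithelium, had 229, 319 and 442 CPM in ex vivo tumors, against 458, 605 and 613 CPM in organoids and was not called (log2 fold change -0.76, SE 0.33, adjusted p = 0.107). Agrn, the proteoglycan agrin, was lower, with 163, 181 and 223 CPM in ex vivo tumors, against 385, 442 and 404 CPM in organoids (log2 fold change -1.12, SE 0.23, adjusted p = 0.00259). Among matrix proteases and their inhibitors 23 of 25 were tested, 11 higher and 1 lower (median 0.70). The number lower was 5 of 24 tested without p7, and 2 of 25 without ex vivo 1 or without ex vivo 3. Mmp2, the gelatinase of fibroblasts, had 71.8, 40 and 85.4 CPM in ex vivo tumors, against 0 CPM in all 3 organoids (at least 1127-fold higher in tumors, adjusted p = 1.63e-06). Adamts2, which trims procollagen, had 24.9, 26.9 and 56.8 CPM in ex vivo tumors, against 0 CPM in all 3 organoids (at least 631-fold higher in tumors, adjusted p = 2.65e-05). Both had no read in any organoid. Mmp13, a collagenase, went the other way, with 3.46, 5.12 and 8.81 CPM in ex vivo tumors, against 29.8, 282 and 259.6 CPM in organoids (log2 fold change -5.04, SE 0.99, adjusted p = 0.00207), and its lowest organoid value, in p7, was still above every tumor.

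Macrophage genes were higher in tumors. Of 28 listed genes 26 were tested and 25 were higher, with a median of 10.22. C1qa, a chain of the complement starter C1q, had 384, 211 and 263 CPM in ex vivo tumors, against 0 CPM in all 3 organoids (at least 5001-fold higher in tumors, adjusted p = 1.71e-06). Lyz2, the lysozyme of myeloid cells, had 1876, 2369 and 2668 CPM in ex vivo tumors, against 0.777, 0.875 and 0.519 CPM in organoids (log2 fold change 11.61, SE 0.42, adjusted p = 3.48e-08). Csf1r, the receptor that keeps macrophages alive, had 114, 121 and 171 CPM in ex vivo tumors, against 0.194, 0.273 and 0.195 CPM in organoids (log2 fold change 9.21, SE 0.45, adjusted p = 1.62e-07). Laptm5, a lysosomal protein of blood cells, had 215, 85.5 and 122 CPM in ex vivo tumors, against 0 CPM in all 3 organoids (at least 2421-fold higher in tumors, adjusted p = 8.52e-06). C1qa and Laptm5 were highest in ex vivo 1, and Lyz2 and Csf1r in ex vivo 3. Marco, a scavenger receptor of some resident macrophages, was near 0 except in 1 library, with 52.6, 0.256 and 0.678 CPM in ex vivo tumors, against 0 CPM in all 3 organoids, and was not tested. The summed macrophage level was 5062, 4781 and 5399 CPM in ex vivo tumors, against 75.4, 32 and 33 CPM in organoids. Of the 19 complement genes 17 were higher and 1 lower (median 6.02). C1s, a protease of C1, had 307, 227 and 337 CPM in ex vivo tumors, against 0, 0.164 and 0.0649 CPM in organoids (log2 fold change 11.81, SE 0.50, adjusted p = 7.64e-08). Serping1, the inhibitor of C1, had 206, 168 and 190.4 CPM in ex vivo tumors, against 0 CPM in all 3 organoids (at least 3358-fold higher in tumors, adjusted p = 7.23e-07). C7, of the membrane attack complex, had 151, 89.4 and 252 CPM in ex vivo tumors, against 0 CPM in all 3 organoids (at least 2785-fold higher in tumors, adjusted p = 1.89e-06). These 3 genes were at or near 0 in every organoid. The one lower gene, Cd55, a cell surface brake on complement, had 49.9, 77.5 and 66.9 CPM in ex vivo tumors, against 60, 371 and 342 CPM in organoids (log2 fold change -1.99, SE 0.51, adjusted p = 0.0108), and p7 was below ex vivo 2 and 3.

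MHC class II genes were close to absent from organoids. These genes encode the molecules that present peptides to CD4 T cells, and in the rat the RT1-B and RT1-D loci hold the classical pairs of chains. All 10 listed genes were tested and 10 were higher, with a median of 11.95. Cd74, the invariant chain, had 2878, 1838 and 2192 CPM in ex vivo tumors, against 0.34, 0.0547 and 0.195 CPM in organoids (log2 fold change 13.43, SE 0.52, adjusted p = 3.62e-08). RT1-Da, the alpha chain of RT1-D, had 1048, 719.7 and 985 CPM in ex vivo tumors, against 0.0486, 0.0547 and 0.13 CPM in organoids (log2 fold change 13.47, SE 0.58, adjusted p = 7.64e-08). RT1-Db1, a beta chain of RT1-D, had 522, 238 and 356 CPM in ex vivo tumors, against 0 CPM in all 3 organoids (at least 6429-fold higher in tumors, adjusted p = 4.98e-07). For RT1-B, RT1-Ba had 582, 393 and 473 CPM in ex vivo tumors, against 0, 0.0547 and 0 CPM in organoids (count ratio 25571, 95% counting interval 4589 to 1010040.0, adjusted p = 1.54e-07) and RT1-Bb had 259, 136 and 202 CPM in ex vivo tumors, against 0 CPM in all 3 organoids (at least 3455-fold higher in tumors, adjusted p = 2.22e-06). In all 5 genes ex vivo 1 was highest, ex vivo 2 lowest, and every tumor lay above every organoid. Ciita, the switch factor of class II transcription, had 47.7, 55 and 72 CPM in ex vivo tumors, against 0.0486, 0.219 and 0.13 CPM in organoids (log2 fold change 8.73, SE 0.48, adjusted p = 2.97e-07), and its highest tumor was ex vivo 3. The RT1 genes are a family of similar copies, so reads that match several may have been shared among them or left uncounted. The summed list was 5634, 3559.6 and 4501 CPM in ex vivo tumors, against 4.23, 9.74 and 9.28 CPM in organoids. B cells and dendritic cells make class II molecules without further stimulus, and macrophages can also carry them. Dendritic cell genes were higher in 9 of 10 tested (median 5.50), and which cells carried the class II reads was not tested.

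The 4 classical class II genes above are shown by their promoters because they moved together and share a motif that a search found in 5 of the 8 class II members with a promoter entry. The stretches are RefSeq sequence of assembly GRCr8, 120 bases each, in the direction of transcription, and the capitals mark the Y box, CTGATTGG, searched on both strands.
RT1-Ba, chr20:4576937-4577056, plus strand: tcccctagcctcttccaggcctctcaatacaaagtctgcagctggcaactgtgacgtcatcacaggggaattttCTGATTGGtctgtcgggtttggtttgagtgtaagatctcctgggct
RT1-Bb, chr20:4604119-4604238, minus strand: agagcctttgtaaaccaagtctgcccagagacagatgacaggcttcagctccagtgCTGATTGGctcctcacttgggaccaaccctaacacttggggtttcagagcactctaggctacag
RT1-Da, chr20:4515295-4515414, plus strand: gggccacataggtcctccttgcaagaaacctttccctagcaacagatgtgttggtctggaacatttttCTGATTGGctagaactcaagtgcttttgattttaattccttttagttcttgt
RT1-Db1, chr20:4560163-4560282, minus strand: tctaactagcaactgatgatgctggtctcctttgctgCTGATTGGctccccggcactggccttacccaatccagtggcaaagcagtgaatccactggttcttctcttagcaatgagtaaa
Among windows of 300 bases around the gene start, CTGATTGG stood in 62.5% of the class II members with an entry and in 3.55% of 27457 promoters. A match describes letters and is no measured site.

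Most interferon response genes were higher in tumors. Of 37 listed genes 36 were tested and 32 were higher, with a median of 2.79. B2m, the invariant subunit of class I molecules, had 1391, 1353 and 1201 CPM in ex vivo tumors, against 126, 197 and 189.8 CPM in organoids (log2 fold change 2.94, SE 0.25, adjusted p = 6.6e-06). Cxcl9, an attractant of T cells induced by interferon gamma, had 48.8, 103 and 75.6 CPM in ex vivo tumors, against 0.146, 0 and 0.13 CPM in organoids (log2 fold change 9.58, SE 0.59, adjusted p = 2.42e-06). Gbp5, a guanylate-binding GTPase, had 82.4, 126 and 76.2 CPM in ex vivo tumors, against 0.243, 0.328 and 0.195 CPM in organoids (log2 fold change 8.49, SE 0.39, adjusted p = 1.24e-07). Gbp2 of the same family had 634, 547 and 377 CPM in ex vivo tumors, against 9.42, 11 and 7.79 CPM in organoids (log2 fold change 5.78, SE 0.31, adjusted p = 2.97e-07). No tumor overlapped an organoid in these 4 genes. Nlrc5, the switch factor of class I genes, had 56.5, 85.4 and 86.7 CPM in ex vivo tumors, against 0.291, 1.09 and 0.389 CPM in organoids (log2 fold change 6.99, SE 0.60, adjusted p = 6.02e-06). Ifng itself, the cytokine, was low, with 0.589, 1.23 and 0.828 CPM in ex vivo tumors, against 0 CPM in all 3 organoids (at least 16.8-fold higher in tumors, adjusted p = 0.00193). Its receptor chain Ifngr1 had 141, 82.4 and 105 CPM in ex vivo tumors, against 29, 28.9 and 31.7 CPM in organoids (log2 fold change 1.87, SE 0.23, adjusted p = 9.9e-05). Cd274, the ligand of PD-1, had 12.7, 16.5 and 13.5 CPM in ex vivo tumors, against 0.194, 0.492 and 1.36 CPM in organoids (log2 fold change 4.41, SE 0.57, adjusted p = 0.000121). The summed interferon list was 4014, 3720.2 and 3595 CPM in ex vivo tumors, against 478, 565 and 535 CPM in organoids. Macrophage and T cell genes were higher in the same tumors, and their part in the interferon list was not tested.

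Promoters of 4 interferon members are shown because their genes were higher and their windows hold an interferon element. The stretches are 80 bases of RefSeq GRCr8 in the direction of transcription, and the capitals mark matches to GAAANNGAA on either strand, overlapping matches running into one.
Gbp2, chr2:234005647-234005726, plus strand: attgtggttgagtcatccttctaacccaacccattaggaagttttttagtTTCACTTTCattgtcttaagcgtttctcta
Psmb10, chr19:50743293-50743372, minus strand: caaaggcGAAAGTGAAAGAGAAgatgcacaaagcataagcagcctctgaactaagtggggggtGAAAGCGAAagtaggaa
Tapbp, chr20:4967878-4967957, minus strand: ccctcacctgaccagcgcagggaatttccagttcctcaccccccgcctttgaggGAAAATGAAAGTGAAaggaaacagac
Oas1a, chr12:41330386-41330465, plus strand: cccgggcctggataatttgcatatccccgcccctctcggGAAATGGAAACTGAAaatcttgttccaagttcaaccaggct
The letters GAAANNGAA stood in 20 of 28 interferon members with a promoter entry (71.4%) and in 9.5% of all 27457 promoters of the same length. Psmb10, a subunit of the immunoproteasome, had 65.2, 43 and 48.3 CPM in ex vivo tumors, against 3.4, 1.75 and 2.27 CPM in organoids (log2 fold change 4.39, SE 0.36, adjusted p = 4.79e-06). Tapbp, which loads peptide onto class I molecules, had 192, 132 and 151 CPM in ex vivo tumors, against 44.6, 29.2 and 27.1 CPM in organoids (log2 fold change 2.23, SE 0.25, adjusted p = 4.23e-05). Oas1a, a sensor of double-stranded RNA, had 4.05, 3.38 and 4.74 CPM in ex vivo tumors, against 0.0486, 0.766 and 0.584 CPM in organoids (log2 fold change 3.13, SE 0.75, adjusted p = 0.00753). All 3 were higher in every tumor than in any organoid.

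Summed over their lists, lymphocyte genes were lower in level than macrophage genes, and they were uneven between tumors. Of 28 T and NK cell genes 27 were tested and 25 were higher (median 8.06). Cd3e, a chain of the T cell receptor complex, had 54.5, 13.1 and 19 CPM in ex vivo tumors, against 0 CPM in all 3 organoids (at least 487-fold higher in tumors, adjusted p = 0.000147; at least 280.2-fold without ex vivo 1). Cd4, which rat macrophages also carry, had 116, 81.8 and 118 CPM in ex vivo tumors, against 0 CPM in all 3 organoids (at least 1851-fold higher in tumors, adjusted p = 1.71e-06). Ex vivo 1 was the highest tumor in 24 of the 27 T and NK genes. In the B and plasma cell list 11 of 13 were tested and 11 were higher, with a median of 8.17. Cd79a, of the B cell receptor, had 118, 2.2 and 9.49 CPM in ex vivo tumors, against 0.194, 0.875 and 1.36 CPM in organoids (log2 fold change 5.76, SE 1.30, adjusted p = 0.00503), and without ex vivo 1 its log2 fold change was 2.85 (adjusted p = 0.0352). Jchain, which joins IgA and IgM, had 229.6, 19 and 44.9 CPM in ex vivo tumors, against 0.389, 0.328 and 0.13 CPM in organoids (log2 fold change 8.36, SE 0.99, adjusted p = 6.81e-05). Ex vivo 1 was highest in all 11, and without it 10 were still higher, with a median of 5.53. The summed B and plasma cell level was 739, 40.3 and 105 CPM in ex vivo tumors, against 10.3, 7.99 and 6.62 CPM in organoids. This sum leaves out the unnamed genes LOC103690146 and LOC103692723, given at the end, with 3871 and 1550 CPM in ex vivo 1. Ccl21, which draws lymphocytes into lymphoid tissue, followed the same library, with 190.2, 1.33 and 2.48 CPM in ex vivo tumors, against 0.0486, 0 and 0 CPM in organoids (count ratio 3092, 95% counting interval 554 to 122164, adjusted p = 0.00706). Ccl19, which shares its receptor, had 42.3, 0.973 and 0.903 CPM in ex vivo tumors, against 0 CPM in all 3 organoids (at least 236-fold higher in tumors, adjusted p = 0.0151). Both chemokines were under 3 CPM in ex vivo 2 and 3. For Ccl21 the ratio was 97.6 without ex vivo 1 and 5286 without ex vivo 2. For Ccl19 the lower bound was 17.1-fold without ex vivo 1 and 395-fold without ex vivo 2.

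Mast cells and granulocytes left smaller marks. All 9 mast cell genes were tested and 8 were higher (median 8.38). Mcpt2, the mast cell protease of mucosa in the rat, had 60.8, 150.4 and 87.6 CPM in ex vivo tumors, against 0 CPM in all 3 organoids (at least 1922-fold higher in tumors, adjusted p = 9.7e-06). Cpa3, a carboxypeptidase of mast cell granules, had 14.8, 25.3 and 20.9 CPM in ex vivo tumors, against 0 CPM in all 3 organoids (at least 379.5-fold higher in tumors, adjusted p = 2.02e-05). For both, ex vivo 2 was the highest and no organoid had a read. Of 12 neutrophil genes only 7 could be tested, of which 4 were higher. Csf3r, the receptor of granulocyte growth factor, had 15.8, 19.6 and 22.7 CPM in ex vivo tumors, against 0 CPM in all 3 organoids (at least 350.3-fold higher in tumors, adjusted p = 1.61e-05), whereas S100a9, a calcium-binding protein of neutrophils, had 14.2, 10.3 and 7.45 CPM in ex vivo tumors, against 0.0486, 2.57 and 3.05 CPM in organoids and was not called (log2 fold change 2.51, SE 0.98, adjusted p = 0.072). Among 24 chemokines 20 were tested, 11 higher and 4 lower, with a median of 7.54. Cxcl13, an attractant of B cells, had 137, 65.3 and 117 CPM in ex vivo tumors, against 0 CPM in all 3 organoids (at least 1828-fold higher in tumors, adjusted p = 5.3e-06). Ccl2, an attractant of monocytes, had 10.1, 12.5 and 10.4 CPM in ex vivo tumors, against 0 CPM in all 3 organoids (at least 202-fold higher in tumors, adjusted p = 0.00032). The 4 lower chemokines, Cxcl2, Cxcl3, Cxcl6 and Ppbp, are known to attract neutrophils. Cxcl6 had 118, 159 and 92.2 CPM in ex vivo tumors, against 193, 1692 and 1293 CPM in organoids (log2 fold change -3.11, SE 0.75, adjusted p = 0.00783) and Cxcl3 had 5.23, 3.43 and 3.39 CPM in ex vivo tumors, against 5.44, 29.1 and 29.1 CPM in organoids (log2 fold change -2.40, SE 0.62, adjusted p = 0.011), where p7 was the organoid nearest the tumors. Another lower call, Cxcl2, was lost when any single tumor, p8, p9 or the cells of passage 8 was left out.

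Vessel genes were higher as a group. Of 21 endothelial genes, all tested, 17 were higher (median 5.88). Kdr, the main receptor of VEGF-A, had 25.6, 21.6 and 29.4 CPM in ex vivo tumors, against 0 CPM in all 3 organoids (at least 452-fold higher in tumors, adjusted p = 9.59e-06). Pecam1, a junction protein of endothelium and some leukocytes, had 94, 42 and 67.4 CPM in ex vivo tumors, against 0.486, 0.0547 and 0.0649 CPM in organoids (log2 fold change 8.25, SE 0.62, adjusted p = 2.17e-06). Plvap, of the openings of capillaries, had 74.8, 26.7 and 48.5 CPM in ex vivo tumors, against 0.0486, 0 and 0 CPM in organoids (count ratio 2552, 95% counting interval 458 to 100856, adjusted p = 4.44e-06). All 3 were wholly separate. Flt1, another VEGF receptor, had 138, 151 and 209 CPM in ex vivo tumors, against 95.2, 182 and 193 CPM in organoids and was not called (log2 fold change 0.08, SE 0.28, adjusted p = 0.847), its organoid and tumor values overlapping. Red cell genes were higher in 7 of 7 tested, with 581, 127 and 156 CPM in ex vivo tumors, against 0 CPM in all 3 organoids for Hba-a1, an alpha globin (at least 4852-fold higher in tumors, adjusted p = 6.8e-05), and 419.7, 40.9 and 103 CPM in ex vivo tumors, against 0 CPM in all 3 organoids for Hbb, a beta globin (at least 3069.9-fold higher in tumors, adjusted p = 0.00031). Ex vivo 1 had the most globin and ex vivo 2 the least. Without ex vivo 1 the lower bounds were 2512-fold for Hba-a1 and 1197-fold for Hbb, and without ex vivo 2 4763-fold for Hbb. The globins are near-identical copies, so reads that match several may have been split among them or left uncounted.

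Ex vivo tumor 1 also had the highest levels of fat and abdominal organ genes. Of 14 fat cell genes 9 were tested, 5 higher and 1 lower, and without ex vivo 1 this was 3 higher and 1 lower, with the median at 0.25 in place of 3.59. Without ex vivo 2, 8 of 10 were higher. Adipoq, adiponectin of fat cells, had 70.3, 2.51 and 2.48 CPM in ex vivo tumors, against 3.16, 1.91 and 1.1 CPM in organoids (log2 fold change 3.59, SE 1.11, adjusted p = 0.029), and without ex vivo 1 its log2 fold change was 0.25 (adjusted p = 0.79). This call was also lost without p8 (adjusted p = 0.0788) or without p9 (adjusted p = 0.0946). Ca3, a carbonic anhydrase of fat, liver and muscle, had 207, 1.33 and 1.51 CPM in ex vivo tumors, against 0 CPM in all 3 organoids (at least 1114-fold higher in tumors, adjusted p = 0.00799). Its lower bound was 25.4-fold without ex vivo 1 and 1906-fold without ex vivo 2. Of 13 genes of liver and exocrine pancreas only 5 were tested and 5 were higher, 3 without ex vivo 1, 11 of 11 without ex vivo 2 or without p7 and 8 of 11 without p8. Alb, serum albumin, had 79.7, 2.46 and 23 CPM in ex vivo tumors, against 0.0971, 0 and 0 CPM in organoids (count ratio 839.6, 95% counting interval 232 to 6939.9, adjusted p = 0.000293). Its ratio was 292 without ex vivo 1 and 1401 without ex vivo 2. Cel, a lipase of the pancreas, had 18.9, 0.563 and 0.602 CPM in ex vivo tumors, against 0.34, 0.492 and 0 CPM in organoids (log2 fold change 4.51, SE 1.36, adjusted p = 0.0258), with a log2 fold change of 0.99 (adjusted p = 0.507) without ex vivo 1 and 3.94 (adjusted p = 0.0778) without p9. The summed organ list was 330.4, 47 and 90 CPM in ex vivo tumors, against 17, 21.1 and 20.2 CPM in organoids. Both lists were thus mainly carried by 1 tumor. Mesothelial genes were tested in 10 of 13 and higher in 8 (median 5.00). Wt1, a factor of mesothelium, had 6.33, 5.02 and 10.5 CPM in ex vivo tumors, against 0 CPM in all 3 organoids (at least 126-fold higher in tumors, adjusted p = 7.24e-05), with ex vivo 3 the highest. Msln, mesothelin, which tumors also make, had 426, 333 and 332 CPM in ex vivo tumors, against 275, 191 and 180.0 CPM in organoids (log2 fold change 0.76, SE 0.24, adjusted p = 0.0337), a call that was lost without any one tumor, p8, p9 or the cells of passage 8. Nerve and skeletal muscle lists could be tested for only 6 of 14 and 5 of 10 genes, with 2 and 3 higher.

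**Figure D2:**
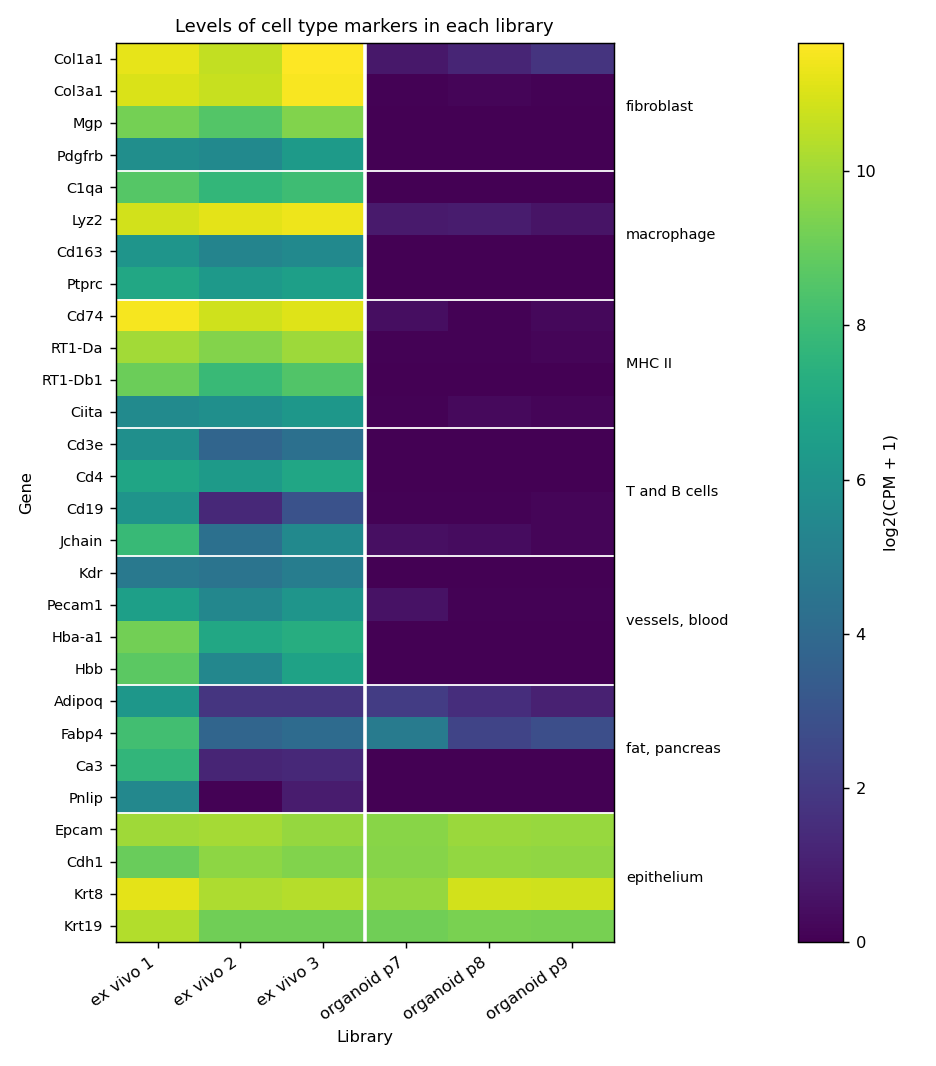
Each row is a marker gene, grouped by cell type at the right, each column a library with ex vivo tumors left and organoids right, and colour is log2(CPM + 1). Fibroblast, leukocyte, vessel and blood rows are bright in the 3 tumors and dark in the 3 organoids, fat and pancreas rows are bright chiefly in ex vivo 1, and the epithelial rows are bright in all 6 libraries.

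Epithelial genes were called in both directions, with the lower calls near the share of all genes tested (10.6%) and the higher calls under it (19.9%). Of 41 listed genes 40 were tested, 4 higher and 5 lower, with a median of -0.36. DESeq2 called 4 higher and 11 lower, and limma-voom with quality weights 7 higher and 19 lower. The number lower was 10 without p7 and 3 without ex vivo 3 or without p9. Summed, the list was 12404, 9105 and 8918 CPM in ex vivo tumors, against 9089, 12101 and 11608 CPM in organoids. Epcam, the adhesion molecule of epithelium, had 1037, 1093 and 918 CPM in ex vivo tumors, against 764, 953 and 922 CPM in organoids (log2 fold change 0.21, SE 0.23, adjusted p = 0.529). Cdh1, E-cadherin, had 510.0, 814 and 708 CPM in ex vivo tumors, against 759.9, 877 and 847 CPM in organoids (log2 fold change -0.29, SE 0.23, adjusted p = 0.376). Neither was called. Krt8, a simple epithelial keratin, had 2374, 1188 and 1312 CPM in ex vivo tumors, against 903, 1869 and 1791 CPM in organoids (log2 fold change 0.09, SE 0.34, adjusted p = 0.857), and the groups overlapped. Krt20, a keratin of differentiated colon epithelium, was higher, with 82.3, 15.3 and 12.9 CPM in ex vivo tumors, against 2.09, 6.73 and 5.52 CPM in organoids (log2 fold change 2.95, SE 0.68, adjusted p = 0.00584), and ex vivo 1 was far above the other tumors. Without it the log2 fold change was 1.55 (adjusted p = 0.0244). Krt7, a keratin low in normal colon, had 904, 446 and 489 CPM in ex vivo tumors, against 186, 329 and 286 CPM in organoids (log2 fold change 1.20, SE 0.31, adjusted p = 0.0116), and without ex vivo 1 its log2 fold change was 0.79 (adjusted p = 0.0454). Ovol1, a repressor of mesenchymal genes, was lower, with 13.2, 13.4 and 13 CPM in ex vivo tumors, against 25.5, 46.2 and 45.8 CPM in organoids (log2 fold change -1.57, SE 0.29, adjusted p = 0.0015). In these 3 called genes the groups did not overlap.

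Intestinal stem cell and WNT target genes were called higher more often than all genes tested, of which 19.9% were higher and 10.6% lower. Of 25 genes 22 were tested, 12 higher and 2 lower, with a median of 1.55. The lower calls were near the share of all genes. Lgr5, the receptor that marks intestinal stem cells, had 83.7, 263 and 206 CPM in ex vivo tumors, against 26.7, 12 and 10.1 CPM in organoids (log2 fold change 3.50, SE 0.52, adjusted p = 0.000293). Notum, a secreted enzyme that inactivates WNT, had 149.8, 291 and 243 CPM in ex vivo tumors, against 14.4, 2.79 and 3.12 CPM in organoids (log2 fold change 5.06, SE 0.59, adjusted p = 6.09e-05). Nkd1, an inhibitor inside the cell, had 150.4, 382 and 299.7 CPM in ex vivo tumors, against 32.7, 9.85 and 12.4 CPM in organoids (log2 fold change 3.92, SE 0.50, adjusted p = 0.000109). Smoc2, a matrix protein of crypt stem cells, had 11.7, 26.1 and 20.2 CPM in ex vivo tumors, against 0 CPM in all 3 organoids (at least 365-fold higher in tumors, adjusted p = 3.8e-05). In all 4 the tumors lay above the organoids, ex vivo 1 was the lowest tumor and, where there were reads, p7 the highest organoid. Fibroblasts can also express Smoc2 and Nkd1, and their part was not tested. Axin2, a general WNT target, had 143, 317 and 249.9 CPM in ex vivo tumors, against 144, 185 and 174 CPM in organoids and was not called (log2 fold change 0.50, SE 0.27, adjusted p = 0.195), but without ex vivo 1 it was higher (log2 fold change 0.74, adjusted p = 0.0281). Ephb2, a receptor of crypt cells, was lower, with 40.3, 52.9 and 57.4 CPM in ex vivo tumors, against 104, 154 and 147 CPM in organoids (log2 fold change -1.42, SE 0.22, adjusted p = 0.000391). The other lower gene, Cd44, kept its call only in the fit without p7 among those that left out 1 library.

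More secretory and absorptive genes were called higher than lower in tumors, as over all genes tested, where 19.9% were higher and 10.6% lower. Most were not called in the main fit, and p7 decided several. Of 24 goblet cell genes 17 were tested, 5 higher and 1 lower (median 0.41), and without p7 there were 9 higher and 1 lower of 18 (median 1.84). Muc2, the mucin of goblet cells, had 2.43, 60.1 and 27 CPM in ex vivo tumors, against 145, 14.9 and 16.5 CPM in organoids (log2 fold change -0.97, SE 0.95, adjusted p = 0.471), p7 being above every tumor and p8 and p9 below ex vivo 2 and 3. Dmbt1, a secreted mucosal defence protein, had 29.8, 346 and 275 CPM in ex vivo tumors, against 1165, 2.02 and 5.91 CPM in organoids (log2 fold change -0.85, SE 1.53, adjusted p = 0.71). Without p7 it was higher in tumors, with a log2 fold change of 5.79 (adjusted p = 0.000974). Muc4, a membrane mucin, was higher throughout, with 41.8, 262 and 145 CPM in ex vivo tumors, against 10.3, 3.77 and 3.76 CPM in organoids (log2 fold change 4.64, SE 0.87, adjusted p = 0.00155), and so was Pigr, the carrier of IgA across epithelium, with 13.3, 27.3 and 16.6 CPM in ex vivo tumors, against 0.146, 0.164 and 0.584 CPM in organoids (log2 fold change 6.03, SE 0.61, adjusted p = 2.05e-05). Fcgbp, which binds mucus, was lower, with 19.7, 30.1 and 28.5 CPM in ex vivo tumors, against 72.3, 176 and 183 CPM in organoids (log2 fold change -2.46, SE 0.41, adjusted p = 0.000697). Of 23 enterocyte genes 13 were tested, 4 higher and 2 lower. Without ex vivo 3 this was 5 and 1 of 15 tested, and without p8 6 and 1 of 15. Car2, a carbonic anhydrase of surface epithelium, had 38.1, 73.9 and 56.4 CPM in ex vivo tumors, against 6.99, 2.57 and 3.83 CPM in organoids (log2 fold change 3.65, SE 0.51, adjusted p = 0.000218). Aqp8, a water channel of colon epithelium, was lower, with 1.69, 3.43 and 1.51 CPM in ex vivo tumors, against 42.7, 56.2 and 47 CPM in organoids (log2 fold change -4.43, SE 0.41, adjusted p = 1e-05). Both genes were apart in all 6 libraries.

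**Figure D3:**
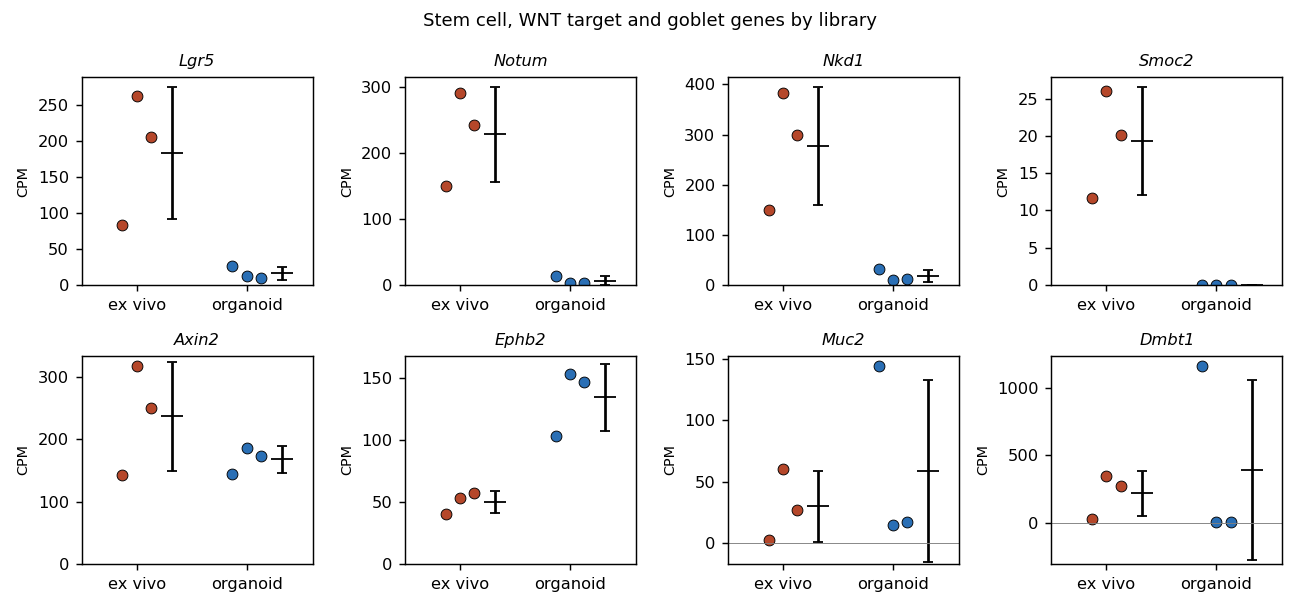
Points are CPM of single libraries, ex vivo tumors in red at the left and organoids in blue at the right of each panel, with the mean and SD (n = 3) beside them. Lgr5, Notum, Nkd1 and Smoc2 lie higher in the tumors, Ephb2 lower, Axin2 overlaps, and 1 organoid (p7) lies above all tumors for Muc2 and Dmbt1.

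Cholesterol synthesis was lower in tumors for the whole pathway. All 24 genes were tested and 24 were lower, with a median of -2.76, and 21 still were when a change over 2-fold was asked for. Hmgcs1, which makes HMG-CoA, had 113, 222 and 172 CPM in ex vivo tumors, against 786, 2471 and 2469 CPM in organoids (log2 fold change -3.50, SE 0.52, adjusted p = 0.000307). Lss, which closes the sterol rings, had 61.3, 67.2 and 78.1 CPM in ex vivo tumors, against 261, 1357 and 1247 CPM in organoids (log2 fold change -3.79, SE 0.59, adjusted p = 0.000439). Cyp51, a demethylase of lanosterol, had 311, 367 and 354 CPM in ex vivo tumors, against 783, 4025 and 3952 CPM in organoids (log2 fold change -3.09, SE 0.55, adjusted p = 0.00108). In each of these p7 was above every tumor, and p8 and p9 were higher still. Insig1, the sterol-regulated brake on the pathway, had 62.5, 56.8 and 53 CPM in ex vivo tumors, against 182, 1334 and 1247 CPM in organoids (log2 fold change -4.00, SE 0.64, adjusted p = 0.000536). Srebf2, the factor that drives the pathway, had 147, 151 and 178 CPM in ex vivo tumors, against 284, 395 and 385 CPM in organoids (log2 fold change -1.16, SE 0.23, adjusted p = 0.00247). The brake and the driving factor were thus lower as well. Organoid p7 lay below p8 and p9 in 24 of 24 genes. Without p7 all 24 were lower, with a median of -3.15, and without p8 22 were. The summed list was 2176, 2423 and 2461 CPM in ex vivo tumors, against 5776, 21773 and 21129.5 CPM in organoids. With scaling centred on the epithelial list, all 24 were still lower (median -2.59).

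Fatty acid genes followed. All 13 were tested, 9 lower and 2 higher (median -1.79). Acss2, which makes acetyl-CoA from acetate, had 16.3, 8.09 and 8.51 CPM in ex vivo tumors, against 24, 413 and 394 CPM in organoids (log2 fold change -4.66, SE 0.90, adjusted p = 0.00187), where p7 was near ex vivo 1. Fasn, fatty acid synthase, had 358, 512 and 629 CPM in ex vivo tumors, against 737, 2209 and 2229.8 CPM in organoids (log2 fold change -1.79, SE 0.39, adjusted p = 0.00416). Scd2, a desaturase, had 506, 771 and 948 CPM in ex vivo tumors, against 2862, 6705 and 6827 CPM in organoids (log2 fold change -2.88, SE 0.42, adjusted p = 0.000282). The groups were apart in all 3. Outside this list, Fa2h, which adds a hydroxyl group to fatty acids, had 0.736, 0.666 and 0.903 CPM in ex vivo tumors, against 10.6, 21.3 and 20.2 CPM in organoids (log2 fold change -4.49, SE 0.48, adjusted p = 3.2e-05). In the opposite direction, the list member Fads2, another desaturase, had 13.9, 4.05 and 9.71 CPM in ex vivo tumors, against 0.0486, 0 and 0 CPM in organoids (count ratio 465, 95% counting interval 82.9 to 18396, adjusted p = 7.87e-05). Pparg of the fat cell list, a nuclear receptor of fat and of colon epithelium, was lower, with 6.63, 4.41 and 4.74 CPM in ex vivo tumors, against 76.8, 43.8 and 44.3 CPM in organoids (log2 fold change -3.39, SE 0.36, adjusted p = 2.65e-05), and here p7 was the highest organoid. A search for the sterol element TCACNCCAC on both strands found it in 0 of 16 cholesterol members with a promoter entry and in 1.13% of all promoters, which says only that these letters are not in those windows.

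Glycolysis and hypoxia genes were lower in tumors. All 34 were tested, 30 lower and 1 higher, with a median of -1.55. Slc2a1, the glucose transporter GLUT1, had 328, 338 and 293 CPM in ex vivo tumors, against 408, 1087 and 1111 CPM in organoids (log2 fold change -1.44, SE 0.34, adjusted p = 0.00622). Pkm, pyruvate kinase, had 2214, 2061 and 1768 CPM in ex vivo tumors, against 3266, 6032 and 5867 CPM in organoids (log2 fold change -1.33, SE 0.30, adjusted p = 0.0057). Ldha, lactate dehydrogenase, had 1564, 899.9 and 1101 CPM in ex vivo tumors, against 2166, 3831 and 3863 CPM in organoids (log2 fold change -1.47, SE 0.32, adjusted p = 0.00398). Pfkfb4, a regulator of glycolytic flux, had 12.2, 10.2 and 14.4 CPM in ex vivo tumors, against 13, 139 and 122 CPM in organoids (log2 fold change -2.89, SE 0.65, adjusted p = 0.00528). Pfkfb3 of the same family had 54.9, 57.4 and 64.3 CPM in ex vivo tumors, against 70.8, 386 and 405 CPM in organoids (log2 fold change -2.28, SE 0.48, adjusted p = 0.00326). Bnip3, which starts removal of mitochondria, had 52.8, 40.4 and 43.7 CPM in ex vivo tumors, against 85.8, 412 and 398 CPM in organoids (log2 fold change -2.71, SE 0.48, adjusted p = 0.00109). Ero1a, an oxidase of the endoplasmic reticulum, had 59.6, 80.8 and 76 CPM in ex vivo tumors, against 212, 712 and 777 CPM in organoids (log2 fold change -2.97, SE 0.42, adjusted p = 0.000223). In these 7 genes p7 lay nearest the tumors, and no tumor reached an organoid except for Pfkfb4, where ex vivo 3 exceeded p7. The factors changed less: Hif1a had 118, 191 and 185 CPM in ex vivo tumors, against 143, 219 and 224 CPM in organoids and was not called (log2 fold change -0.25, SE 0.32, adjusted p = 0.588), and Epas1, which endothelium expresses strongly, was higher, with 94, 100.1 and 124 CPM in ex vivo tumors, against 57.6, 46.2 and 44.5 CPM in organoids (log2 fold change 1.10, SE 0.24, adjusted p = 0.00377). The one higher list member, Angptl4, a lipase inhibitor made by fat and vessels, had 28, 4.81 and 7.9 CPM in ex vivo tumors, against 0, 0.547 and 0.0649 CPM in organoids (log2 fold change 6.01, SE 1.04, adjusted p = 0.000872). The summed list was 14396, 10531 and 11061 CPM in ex vivo tumors, against 21449, 39551 and 40004 CPM in organoids. When single libraries were left out, the number lower lay between 22 (without ex vivo 2) and 30 (without p7), and it was 14 when a change over 2-fold was asked for.

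Promoters of 4 of these genes are shown because the genes were lower and their windows hold the core of the hypoxia element. Each stretch is 120 bases of RefSeq GRCr8 in the direction of transcription, with capitals at matches to ACGTG on either strand. A palindrome, CACGTG, matches on both.
Bnip3, chr1:203154963-203155082, minus strand: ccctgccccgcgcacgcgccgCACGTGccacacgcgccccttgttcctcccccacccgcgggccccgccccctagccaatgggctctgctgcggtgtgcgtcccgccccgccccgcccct
Ldha, chr1:106507972-106508091, plus strand: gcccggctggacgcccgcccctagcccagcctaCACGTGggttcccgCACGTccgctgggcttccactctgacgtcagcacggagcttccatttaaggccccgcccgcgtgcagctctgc
Slc2a1, chr5:138002402-138002521, plus strand: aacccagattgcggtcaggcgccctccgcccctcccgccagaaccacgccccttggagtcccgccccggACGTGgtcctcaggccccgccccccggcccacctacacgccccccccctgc
Pfkfb3, chr17:71944813-71944932, plus strand: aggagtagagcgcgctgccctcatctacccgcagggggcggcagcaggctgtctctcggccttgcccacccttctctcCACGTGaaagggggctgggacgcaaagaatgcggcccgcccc
ACGTG stood in 16 of 28 list members with a promoter entry (57.1%) and in 19.7% of all promoters of the same length.

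**Figure D4:**
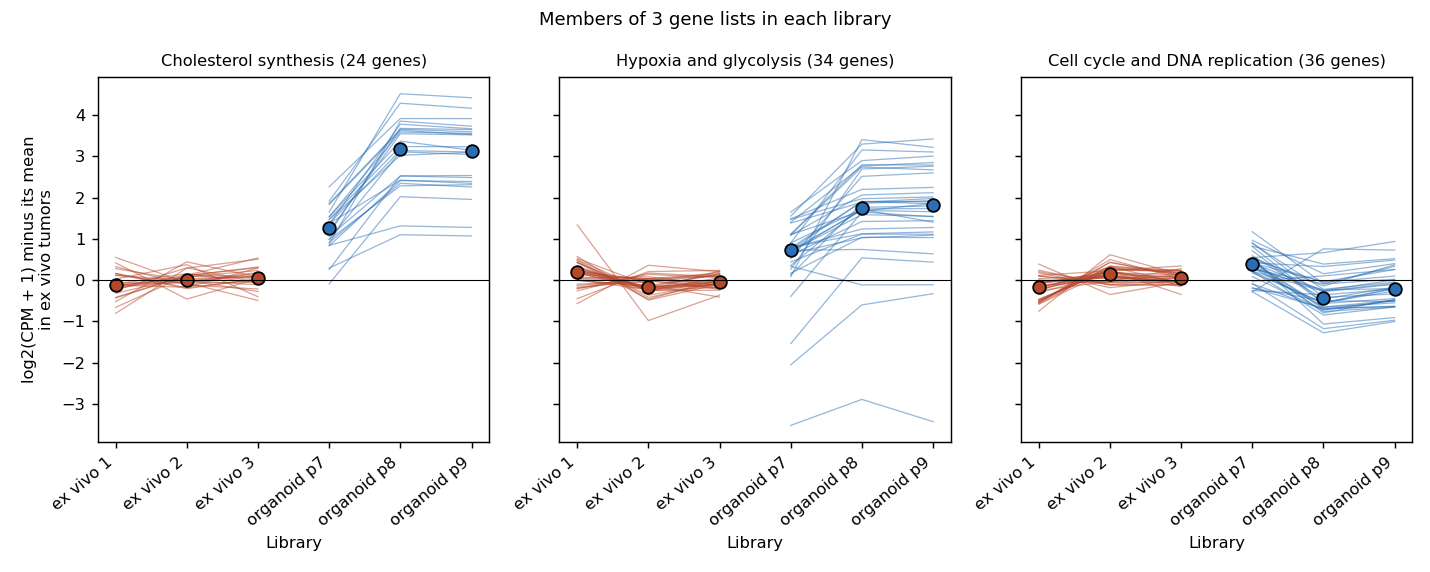
Each thin line is a gene of the list, drawn as log2(CPM + 1) minus its mean in ex vivo tumors across the 3 tumors (red, left) and the 3 organoids (blue, right), and large dots are medians. Cholesterol and hypoxia genes lie above 0 in the organoids with p7 lower than p8 and p9, whereas cell cycle genes lie around 0 with p7 above the others.

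Stress and antioxidant genes were lower in part, where 10.6% of all genes tested were lower and 19.9% higher. Of 24 genes of the ATF4 and unfolded protein responses 7 were lower (median -0.89), 16 without p7 and 3 without any one of ex vivo 2, ex vivo 3, p8 or p9. Slc7a11, the cystine importer that feeds glutathione, had 6.33, 7.32 and 9.18 CPM in ex vivo tumors, against 14.4, 208 and 219 CPM in organoids (log2 fold change -4.27, SE 0.81, adjusted p = 0.00173), and this call did not depend on p7. Hspa5, the chaperone BiP, had 613, 647 and 618 CPM in ex vivo tumors, against 418, 1676 and 1883 CPM in organoids (log2 fold change -1.08, SE 0.46, adjusted p = 0.0944). Here p7 was below every tumor, and without it the gene was lower (log2 fold change -1.50, adjusted p = 0.00156). Among 19 NRF2 target genes 8 were lower and 2 higher (median -0.80), and without p8 6 and 1. Nqo1, a quinone reductase, had 16.6, 11.8 and 12 CPM in ex vivo tumors, against 129, 191 and 206 CPM in organoids (log2 fold change -3.70, SE 0.26, adjusted p = 1.38e-06). Gclc, the first enzyme of glutathione synthesis, had 32, 47.1 and 47.8 CPM in ex vivo tumors, against 146, 113 and 124 CPM in organoids (log2 fold change -1.60, SE 0.21, adjusted p = 0.000159). Gpx2, the glutathione peroxidase of gut epithelium, went the other way, with 2175, 1551 and 1155 CPM in ex vivo tumors, against 184, 202 and 195 CPM in organoids (log2 fold change 3.07, SE 0.28, adjusted p = 8.91e-06). The groups did not overlap in these 3 genes. Of 16 heat shock genes 4 were higher (median 0.44), not far from the share of all genes, and without p7 6 were higher and 1 lower. Hspb1, a small heat shock protein, had 91.1, 64.9 and 95.9 CPM in ex vivo tumors, against 7.24, 6.45 and 6.81 CPM in organoids (log2 fold change 3.62, SE 0.35, adjusted p = 1.56e-05), whereas Hsp90ab1, the main cytosolic chaperone, had 4151, 3855 and 3209.7 CPM in ex vivo tumors, against 3766, 2292 and 2450.3 CPM in organoids and was not called (log2 fold change 0.40, SE 0.28, adjusted p = 0.316), while without p7 it was higher (log2 fold change 0.66, adjusted p = 0.0463), as it was with limma-voom (0.54, adjusted p = 0.00502). Immediate early genes showed 2 higher and 1 lower of 18, both under the shares of all genes. There were 5 lower without p7 and none lower without ex vivo 2, ex vivo 3 or p8. Fos, of the AP-1 complex, had 129, 111 and 105 CPM in ex vivo tumors, against 33.2, 24.4 and 28 CPM in organoids (log2 fold change 2.01, SE 0.36, adjusted p = 0.00117).

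Genes of cell division were not called in either direction. Of 36 cell cycle genes, all tested, edgeR called 0 in either direction, with 1 higher and 1 lower at an unadjusted p under 0.05, and a median of 0.01. DESeq2 called 1 lower and limma-voom with quality weights 15 higher and 2 lower. Without p7, which was the highest organoid in 31 of the 36, 6 were higher and 1 lower, and 1 was lower without ex vivo 3 or without the cells of passage 8 or 11. Mki67, the antigen Ki-67, had 266, 524 and 418 CPM in ex vivo tumors, against 568, 352 and 502 CPM in organoids (log2 fold change -0.24, SE 0.32, adjusted p = 0.609). Top2a, topoisomerase of dividing cells, had 196, 353 and 310.0 CPM in ex vivo tumors, against 490.5, 190.4 and 244 CPM in organoids (log2 fold change -0.11, SE 0.37, adjusted p = 0.855). In both genes the groups overlapped. Over all genes tested 19.9% were higher, and ribosome synthesis and respiratory chain genes lay near that share. Ribosome synthesis genes were higher in 4 of 24 (median 0.35), 11 without p7, 2 without ex vivo 1 and 0 without p8 or without p9. Respiratory chain genes were higher in 6 of 32 (median 0.47), 14 without p7, 1 without ex vivo 1 or without p8 and 0 without p9. Ex vivo 1 was the highest tumor in 28 of these 32. Myc, a driver of growth, had 383, 381 and 303 CPM in ex vivo tumors, against 466, 273 and 265 CPM in organoids (log2 fold change 0.09, SE 0.26, adjusted p = 0.83) and was not called. Of 20 reference genes 1 was higher and 2 were lower (median 0.14), and leaving out single libraries gave between 0 and 3 higher and between 0 and 3 lower.

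Growth factor genes moved in both directions, beside 19.9% higher and 10.6% lower over all genes tested. Of 43 ligand genes 37 were tested, 19 higher and 7 lower (median 1.08). The number lower was 3 without ex vivo 1 and 4 without p8. Besides Igf1, Hgf, the ligand of Met made by fibroblasts, was higher, with 2.5, 3.79 and 4.74 CPM in ex vivo tumors, against 0 CPM in all 3 organoids (at least 66.7-fold higher in tumors, adjusted p = 0.000235). Tgfa, a ligand of the EGF receptor, was lower, with 52.6, 55.8 and 79.3 CPM in ex vivo tumors, against 120.2, 279 and 274 CPM in organoids (log2 fold change -1.84, SE 0.34, adjusted p = 0.00128), and so was Nrg1, a ligand of ERBB3, with 4.12, 4.97 and 3.99 CPM in ex vivo tumors, against 7.67, 20.5 and 19.7 CPM in organoids (log2 fold change -1.86, SE 0.35, adjusted p = 0.00166). Bmp2, a morphogen of the upper crypt, had 22.9, 24.7 and 26.5 CPM in ex vivo tumors, against 30.1, 159 and 143 CPM in organoids (log2 fold change -2.16, SE 0.52, adjusted p = 0.00764). These 3 were lowest in tumors, then in p7. Vegfa, the growth factor of vessels, had 266, 435 and 339 CPM in ex vivo tumors, against 379, 1669 and 1539 CPM in organoids (log2 fold change -1.78, SE 0.48, adjusted p = 0.015), a call that was lost without ex vivo 1 (adjusted p = 0.0596) or without p8 (adjusted p = 0.0509). Of 30 receptor genes 29 were tested, 7 higher and 7 lower (median -0.41), with 4 lower without p8 or without p9. Nrp1, a co-receptor on vessels and macrophages, had 23.7, 28.5 and 59.2 CPM in ex vivo tumors, against 0.243, 0 and 0.0649 CPM in organoids (log2 fold change 8.32, SE 0.70, adjusted p = 5.32e-06). Ddr2, the collagen receptor of fibroblasts, had 23, 18 and 34.6 CPM in ex vivo tumors, against 0, 0.711 and 0.325 CPM in organoids (log2 fold change 6.19, SE 0.79, adjusted p = 0.000109). Epha2, an ephrin receptor of epithelium, was lower, with 257, 222 and 311 CPM in ex vivo tumors, against 422, 726 and 683 CPM in organoids (log2 fold change -1.21, SE 0.26, adjusted p = 0.00404). Egfr had 31.8, 69.6 and 64.4 CPM in ex vivo tumors, against 55.6, 91.2 and 102 CPM in organoids and was not called (log2 fold change -0.58, SE 0.32, adjusted p = 0.196).

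The study used these models to test oxaliplatin and mitomycin C, so genes that handle platinum or reduce mitomycin were read as a list. Of 28 genes 26 were tested, 5 higher and 5 lower, with a median of -0.03, where 19.9% of all genes tested were higher and 10.6% lower. Without ex vivo 1 this was 4 and 3 of 27, and without ex vivo 3 it was 3 and 4. The copper exporters that can also carry platinum were lower: Atp7a had 16.2, 27.2 and 31.9 CPM in ex vivo tumors, against 80.6, 228 and 252 CPM in organoids (log2 fold change -2.89, SE 0.41, adjusted p = 0.000227). Atp7b had 0.736, 0.82 and 2.33 CPM in ex vivo tumors, against 10.6, 35.9 and 33.6 CPM in organoids (log2 fold change -4.38, SE 0.60, adjusted p = 0.000178). All tumors were below all organoids for both. The copper importer Slc31a1 had 60.5, 76.8 and 78.6 CPM in ex vivo tumors, against 67.7, 70.8 and 73.8 CPM in organoids and was not called (log2 fold change 0.02, SE 0.18, adjusted p = 0.935). Abcb1a, a drug efflux pump, had 28.1, 91.2 and 92.1 CPM in ex vivo tumors, against 147, 189.6 and 214 CPM in organoids (log2 fold change -1.38, SE 0.43, adjusted p = 0.029). The Abcb1a call was lost without ex vivo 1, p8 or p9, at adjusted p = 0.0567, 0.0581 and 0.0802. Among enzymes that can reduce mitomycin, Nqo1 was lower, as given above. Por, cytochrome P450 reductase, had 124, 109 and 110.3 CPM in ex vivo tumors, against 121, 153 and 157 CPM in organoids and was not called (log2 fold change -0.33, SE 0.19, adjusted p = 0.203). Xdh, xanthine dehydrogenase, was higher, with 113, 117 and 166 CPM in ex vivo tumors, against 4.76, 4.38 and 3.96 CPM in organoids (log2 fold change 4.92, SE 0.32, adjusted p = 8.49e-07). Xdh is also found in endothelium and macrophages, and their part was not tested.

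**Figure D5:**
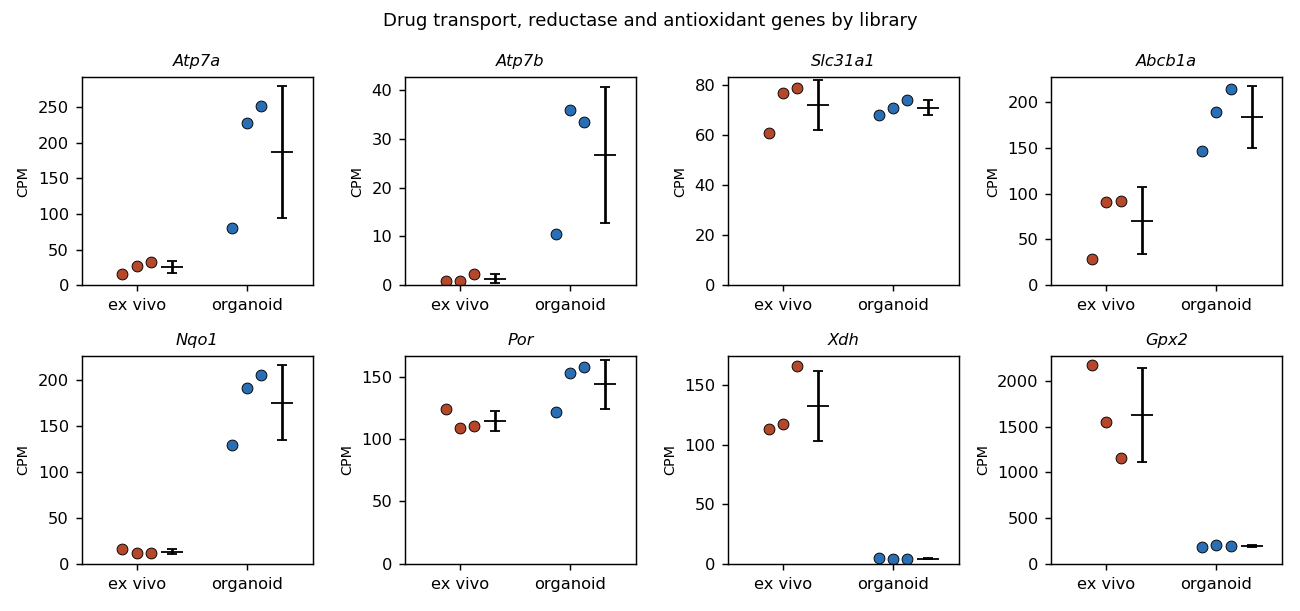
Points are CPM of single libraries, ex vivo tumors in red at the left and organoids in blue at the right of each panel, with the mean and SD (n = 3) beside them. Atp7a, Atp7b, Abcb1a and Nqo1 lie lower in the tumors, Xdh and Gpx2 higher, and Slc31a1 and Por were not called.

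Some of the largest falls lay outside the lists. Ces2c, a carboxylesterase, had 0.295, 0.871 and 0.0753 CPM in ex vivo tumors, against 28.3, 19.6 and 16.2 CPM in organoids (log2 fold change -5.56, SE 0.62, adjusted p = 4.07e-05). Ptgs2, the inducible cyclooxygenase, had 0.295, 1.69 and 2.26 CPM in ex vivo tumors, against 19.2, 34.3 and 36.9 CPM in organoids (log2 fold change -4.40, SE 0.58, adjusted p = 0.000145). Sgk2, a kinase related to serum-induced kinase, had 0.295, 0.512 and 0.527 CPM in ex vivo tumors, against 1.07, 16.4 and 19 CPM in organoids (log2 fold change -4.74, SE 0.88, adjusted p = 0.00146). In all 3 the tumors lay below every organoid. Ano7, of the anoctamin family, had 0.589, 0.768 and 1.43 CPM in ex vivo tumors, against 3.84, 49.7 and 38.3 CPM in organoids (log2 fold change -5.04, SE 1.05, adjusted p = 0.00319). Spin4, a reader of histone marks, had 0.295, 1.02 and 2.18 CPM in ex vivo tumors, against 10.4, 35.9 and 31.5 CPM in organoids (log2 fold change -4.48, SE 0.62, adjusted p = 0.000202), with p7 again the lowest organoid. Beside Cyp1a1, Tiparp, another target of the aryl hydrocarbon receptor, was lower, with 32.9, 26.4 and 28.5 CPM in ex vivo tumors, against 87.5, 319 and 331 CPM in organoids (log2 fold change -3.07, SE 0.41, adjusted p = 0.000164). The receptor gene Ahr had 93.8, 131 and 146 CPM in ex vivo tumors, against 153, 92.6 and 102 CPM in organoids and was not called (log2 fold change 0.09, SE 0.24, adjusted p = 0.804). A further target, Cyp1b1, which fibroblasts express, was higher, with 11.6, 13.8 and 24.5 CPM in ex vivo tumors, against 0.534, 2.08 and 1.49 CPM in organoids (log2 fold change 3.60, SE 0.56, adjusted p = 0.000404). The 3 targets thus did not share a direction.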

How the data were processed

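RNA from ex vivo tumors, organoids and cells (3 libraries each) was prepared with the KAPA mRNA HyperPrep kit and sequenced on an Illumina HiSeq. The authors used FastQC 0.11.9 with MultiQC 1.9 for read quality, cutadapt 1.18 for trimming and STAR 2.7.4 for alignment to mRatBN7.2, and counted reads per gene with STAR, per the study's methods and the submitters' processing notes. The deposited table is titled as normalized, but each count in it is a whole number and the totals differ between libraries, so it was treated as raw counts. As to the gene annotation and the strand setting, neither is given in the sources used here. Reads of a gene and of an overlapping antisense gene therefore could not be told apart. The study's filter (mean log2 of at least 4) and its quantile normalization were run as separate alternatives and not combined, and the filter drops 654 of the 675 genes found in tumors alone.

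Counts were scaled by TMM and tested with edgeR 4.0.16 (glmQLFit, glmQLFTest, two-sided, all 9 libraries, 6 residual degrees of freedom, R 4.3.3). Genes were kept by filterByExpr on the 6 compared libraries, and p-values were adjusted over the 15813 genes kept, at 0.05. CPM used the TMM-scaled totals, and log2 CPM a prior count of 2. A fold against a group with no read was computed against 3 reads over its 3 libraries (0.0553 CPM in organoids, 0.0647 CPM in ex vivo tumors), and against 1 to 3 reads a 95% exact interval of the count ratio is given, which covers counting error only. On simulated counts of 15398 genes the test recovered 12% of 100 genes changed 2-fold and 74% of 100 changed 4-fold, with 7 false calls.

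The 40 lists hold 898 genes, of which 893 matched the table, 4 through a synonym. Members and lists were chosen with earlier results of these data known, and no set test was run. Named genes were the 12 largest rises and 12 largest falls without overlap at 10 CPM or more, for each list up to 3 called rises, up to 3 called falls, the most abundant member and the first 2 entries, the 10 most abundant genes present in one group, and 14 genes fixed by name. Of the 162 genes named, 31 were outside this rule and chosen after their values were seen: Abcb1a, Ahr, Axin2, Bnc1, Cd274, Ciita, Cyp1b1, Epas1, Fstl1, Gbp2, Gclc, Hif1a, Ifng, Ifngr1, Igha, LOC103690146, LOC103692723, Ldha, Marco, Nkd1, Nlrc5, Oas1a, Pfkfb3, Plod2, Por, Ppbp, Psmb10, Srebf2, Tapbp, Tiparp, Vcam1. Not every gene the rule picked is named. Promoters came from RefSeq GRCr8 tables by symbol, which 27234 of 34322 gene names matched, and no coordinates of mRatBN7.2 were used. The letters of the sterol and interferon elements were settled after a first search with longer versions. Some genes of the lists are not reported here. Alternatives used limma 3.58.1 and DESeq2 1.42.0, and tables and figures Python 3.11.15, pandas 2.3.3 and matplotlib 3.10.9.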

Additional observations from a re-analysis of the deposited data

How the results depend on the processing

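No paired analysis was possible because the tumors are numbered 1 to 3 and the organoids 7 to 9, so the groups share no replicate number. Against 3139 genes called higher and 1681 lower, limma-voom with quality weights called 5518 and 3522, and the low-expression filter of the study's methods left 1631 higher and 1396 lower. Centring on epithelial genes gave 1078 lower, quantile normalization with limma 3626 lower and a test against a 2-fold change 362 lower. The share of higher among called genes was 65.1% in the main fit, 76.6% with epithelial centring, 44% with quantile normalization, 86% in the 2-fold test and 53.9% with the study's filter. Epithelial centring moved the median log2 fold change of all genes by 0.141, and quantile normalization by -0.275. Leaving out single libraries gave 2813 (without p9) to 4452 (without p7) genes higher and 980 (without p9) to 2408 (without p7) lower. Of the main calls, 3041 higher and 1562 lower remained without p7. DESeq2 called 3382 and 2162, and no filter on low counts 3963 and 1988. A fit of the 6 compared libraries, without the cells on plastic, called 2876 higher and 1316 lower.

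Genes present only in ex vivo tumors numbered 259 with presence at 5 CPM and 1140 with absence under 0.5 CPM, and 701 to 808 when single libraries were left out. Those only in organoids numbered 1 and 25 with these thresholds, and 6 to 20 when single libraries were left out. For named genes, Dmbt1 (log2 fold change -0.85, not called) was called higher with limma-voom (5.90) and ranged between -1.46 without p8 and 5.79 without p7 when single libraries were left out, and Krt8 was called lower with limma-voom (-0.43, adjusted p = 0.0348). With 3 libraries a group and 6 degrees of freedom, 2-fold changes were mostly missed in simulation. That simulation changed only 100 genes by each fold, while 30.5% of the genes tested were called in the data. Its adjusted threshold was therefore stricter, and the share recovered need not hold for the data. A gene that was not called is still not shown to be equal. The causes of these shifts were not tested.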

Other observations

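Of the 675 genes present only in ex vivo tumors, 118 stood in one of the lists. Some of the others are named here, chosen after their values were seen apart from Igfbp7. Because their levels put them in this class, the folds and adjusted p-values describe them and are no separate support. Igfbp7, a secreted protein of vessels and fibroblasts, had 159.7, 197 and 255 CPM in ex vivo tumors, against 0.0971, 0.0547 and 0.0649 CPM in organoids (log2 fold change 11.30, SE 0.38, adjusted p = 3.48e-08). Fstl1, a secreted glycoprotein of mesenchyme, had 113, 106 and 195 CPM in ex vivo tumors, against 0 CPM in all 3 organoids (at least 2415-fold higher in tumors, adjusted p = 1.71e-06). Plod2, which hydroxylates lysines of collagen, had 67.3, 98.7 and 164 CPM in ex vivo tumors, against 0 CPM in all 3 organoids (at least 1959.8-fold higher in tumors, adjusted p = 8.55e-06), and Vcam1, an adhesion molecule of vessels and stroma, had 72.7, 53.9 and 106 CPM in ex vivo tumors, against 0 CPM in all 3 organoids (at least 1343-fold higher in tumors, adjusted p = 5.33e-06). Ex vivo 3 was the highest tumor in these 4 genes, as for the fibrillar collagens.

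Entries without a name were also among the abundant genes present only in tumors. They too were picked on their levels, so their folds and adjusted p-values are a description. RefSeq gives LOC103690146 and LOC103692723 the biotype C_region, used for constant segments of antigen receptors, on chromosome 6. LOC103690146 had 3871, 156 and 539.6 CPM in ex vivo tumors, against 0.0486, 0 and 0 CPM in organoids (count ratio 73462, 95% counting interval 13184 to 2901630.0, adjusted p = 4.28e-05). Its ratio was 16900.5 without ex vivo 1 and 120693 without ex vivo 2. LOC103692723 had 1550.5, 92.9 and 99.4 CPM in ex vivo tumors, against 0 CPM in all 3 organoids (at least 9435-fold higher in tumors, adjusted p = 0.00031), and Igha, the heavy chain segment of IgA, had 114, 7.99 and 20.7 CPM in ex vivo tumors, against 0 CPM in all 3 organoids (at least 770.0-fold higher in tumors, adjusted p = 0.00111). Ex vivo 1 stood far above the other tumors in all 3, as it did for Cd79a and Jchain. The lower bounds without ex vivo 1 and without ex vivo 2 were 1729-fold and 15070.5-fold for LOC103692723, and 238-fold and 1225-fold for Igha.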
